A study of Rattus norvegicus with 24 samples.

Results

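Heart muscle of injured rats pretreated by acupuncture at Yanglingquan, a point on the outer side of the leg below the knee, was compared with heart muscle of sham rats. The arrays were chosen by their titles, 4 of Yanglingquan and 4 of sham, which is 8 of the 24 arrays in the series, and all 12894 named genes that passed the filter were tested. The Yanglingquan rats received acupuncture for 7 days and then had the anterior descending branch of the left coronary artery tied as a model of myocardial ischaemia-reperfusion injury. The labels name neither acupuncture nor ligation for the sham rats. Other arrays served for reference, 4 of rats with the injury alone, called IRI below, and 12 of rats injured after the same length of acupuncture at Jiaji, Neiguan or Quchi. Every group held 2 males and 2 females, and the labels name no genetic change in any of them. For strain, age, duration of ischaemia and time of sampling, the labels hold no entry. RNA came from whole myocardium, so it mixes muscle, vessel, connective tissue and blood-derived cells.

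When blood flow to heart muscle is cut and then restored, injured cells release chemokines and cytokines that call in neutrophils, and surviving cells switch on immediate early transcription factors, stress genes and inhibitors of the cytokine signal itself. Cardiac muscle draws most of its energy from fatty acids in mitochondria, and genes of fuel choice under the control of fatty acid sensing receptors respond quickly to fasting, stress and catecholamines. The question asked of these data was which of the genes that differ between IRI and sham still differ from sham in hearts pretreated at Yanglingquan.

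Values are levels on the log2 scale, relative to the signal that 75% of the probes on the same array lie below, so a level of 0 is that signal and 1 unit is a doubling. Arrays within the Yanglingquan group correlated at r = 0.980 to 0.989 across genes, arrays within sham at 0.987 to 0.992, and Yanglingquan with sham arrays at 0.973 to 0.983. Markers of heart muscle were abundant on all 8 arrays, with the alpha myosin heavy chain gene Myh6 between 6.96 and 8.24. Sham and IRI arrays were scanned on 1 day and all Yanglingquan arrays on another, the latter shared by 11 of the 12 other acupoint arrays. Treatment and scan day can therefore not be told apart in a comparison of Yanglingquan with sham or with IRI. Fewer probes rose well above background in Yanglingquan, at 73.5 ± 2.51% (SD, n = 4), than in sham at 83.9 ± 2.85% (-10.3 points, exact permutation test, two-sided p = 0.0286, the smallest that 70 assignments allow). The plot of this share by array shows that no Yanglingquan array reached the lowest sham array. Jiaji, Neiguan and Quchi averaged 82.8%, 80.1% and 81.2%, with all but 1 of their arrays scanned on the Yanglingquan day. The cause of the lower share was not tested.

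**Figure D1:**
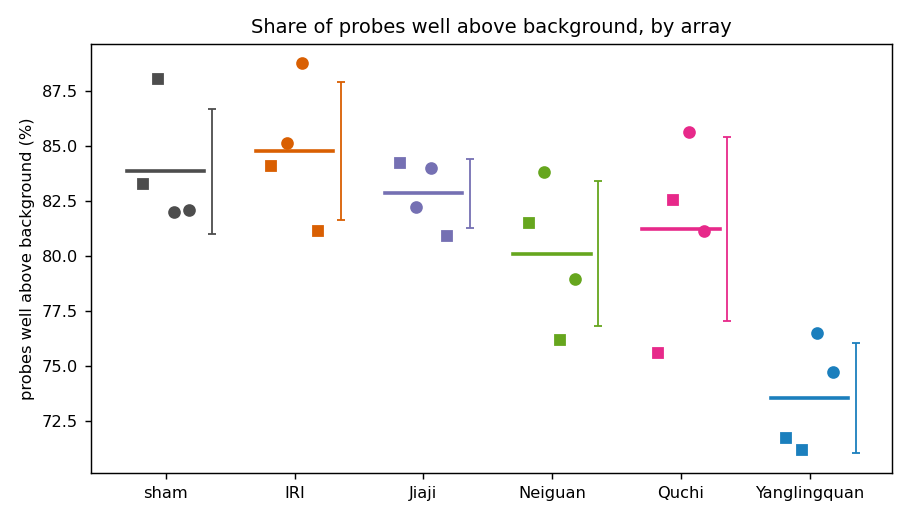
Percentage of probes well above background (vertical axis) on each of the 24 arrays by group, with squares for males, circles for females, a line at the group mean and a bar of 1 SD beside it. The 4 Yanglingquan arrays lie between 71.2% and 76.5%, the 4 sham arrays between 82.0% and 88.0%, and the arrays of Neiguan and Quchi reach down to 76.2% and 75.6%; the vertical axis does not start at 0.

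In Yanglingquan hearts 1679 of the 12894 genes were called against sham (13.0% of those tested, limma, Benjamini-Hochberg adjusted p below the threshold of 0.05), with 752 higher (5.83%) and 927 lower (7.19%). The median difference over all genes was -0.06. With quantile normalization 661 genes were called higher and 663 lower, of which 542 and 574 were the same genes, and with normexp background correction the split moved to 692 higher and 271 lower. Single arrays mattered: without Yanglingquan replicate 4 the count was 1103, without sham replicate 2 it was 842, and without sham replicate 3 the higher calls numbered 460. In a fit of the 8 arrays alone 786 genes were called. Of the 927 lower calls, 234 were of genes well above background on 0 Yanglingquan arrays, so that only a bound on their level was measured there, against 17 of the 752 higher calls for sham.

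The injury itself was read from IRI against sham in the same fit. There 743 genes were called (5.76% of those tested), 610 higher and 133 lower, or 547 and 266 with quantile normalization. Both comparisons share the 4 sham arrays, so their differences are tied to each other, and the counts below are a description. The injury genes were also chosen by their difference in IRI, which by itself favours a larger median there than in Yanglingquan. Of the 743 genes, 289 (38.9%) were called in the same direction in Yanglingquan against sham, 447 were not called and 7 were called in the other direction. A gene not called may still differ from sham. Of the genes not called, 271 of the 355 higher in IRI and 78 of the 92 lower in IRI differed from sham with the same sign as in IRI. Among the genes higher in IRI, 248 of 610 (40.7%) were called higher in Yanglingquan, to be read beside the 5.83% of all genes that were. Among those lower in IRI, 41 of 133 (30.8%) were called lower, beside 7.19% of all genes. The median difference of the 610 genes was 0.82 in IRI and 0.44 in Yanglingquan, and that of the 133 was -0.76 and -0.43. The count of genes still called was 318 of 813 with quantile normalization and 245 of 649 with normexp, and it fell to 170 of 443 without sham replicate 3.

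Whether Yanglingquan hearts themselves differed from IRI hearts was tested as a contrast of those groups in the same fit of 24 arrays, so the sham arrays entered through the spread and the sex term. These groups too were scanned on different days, so pretreatment and scan day cannot be told apart in this contrast. In that test 1566 genes were called (12.1% of those tested), 527 higher and 1039 lower in Yanglingquan, or 359 and 488 with quantile normalization. Of the 743 injury genes, 228 were called there in the direction of sham and were not called against sham, 187 of them genes higher in IRI and 41 genes lower in IRI. The injury genes were chosen on the same IRI arrays that enter this contrast. That choice by itself favours differences in the direction of sham, so these counts are a description as well. Of the 248 genes still called higher, 25 also differed from IRI, 10 of them in the direction of sham and 15 away from it. Of the 41 still called lower, 2 differed from IRI, 1 in each direction, and the 7 called in the other direction all differed from IRI. The scatter of both differences gives these calls by colour.

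**Figure D2:**
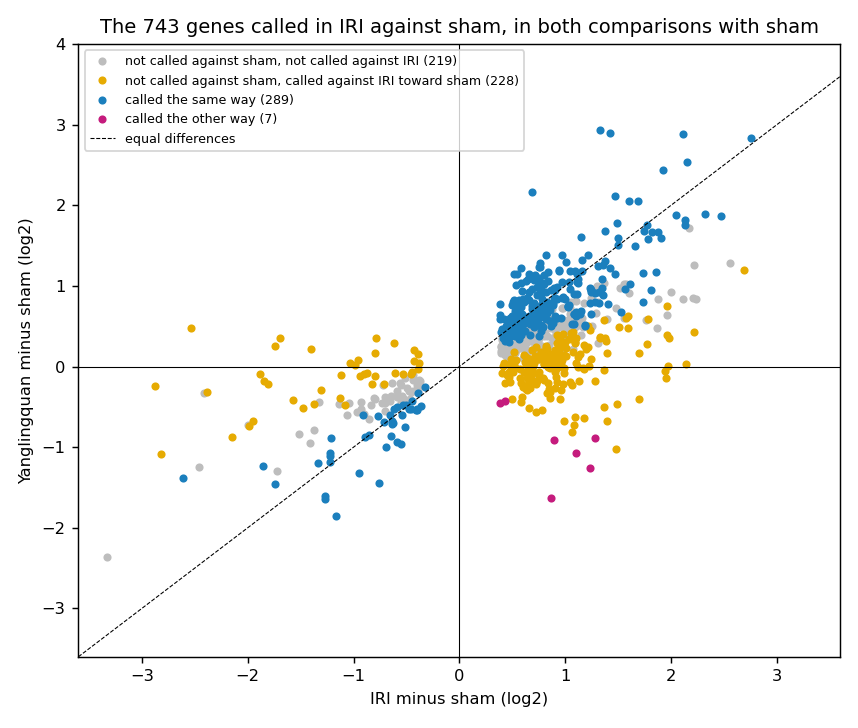
Each point is 1 of the 743 genes called in IRI against sham, with IRI minus sham on the horizontal axis and Yanglingquan minus sham on the vertical axis, both in log2 units; colours give the calls in Yanglingquan and the dashed line marks equal differences. The 7 called in the other direction lie below zero at the right, and both axes share the sham arrays.

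The chemokine gene Cxcl1 and the cytokine gene Il6 were among those still raised. Cxcl1, which encodes the chief neutrophil chemoattractant of rodents, stood at 2.97, 3.22, 2.15 and 2.45 on the Yanglingquan arrays, at 1.26, 0.09, 0.53 and 1.42 on the sham arrays and at 2.19, 3.43, 2.33 and 3.54 on the IRI arrays. All Yanglingquan values lay above all sham values and within the range of IRI or just under it. The difference from sham was 1.88 ± 0.38 (SE, adjusted p = 0.00284), the difference from IRI was -0.17 ± 0.38 (adjusted p = 0.82), and the call held under every alternative scaling, filter and left-out array. Il6, which encodes interleukin 6, a cytokine of the acute phase, stood at -0.92 and -0.85 in the 2 Yanglingquan males and at -2.95 and -3.13 in the 2 females, against -3.23 and -4.40 in sham males and -4.25 and -3.01 in sham females. The males lay far above sham and the females overlapped it. On the IRI arrays it stood at -1.80, -1.14, -2.90 and -0.51, and IRI minus sham was 2.13 ± 0.54 (adjusted p = 0.0215), a call that ended without sham replicate 1, 2 or 3 (adjusted p = 0.0501 to 0.0799). The Yanglingquan difference over all 4 was 1.76 ± 0.54 (adjusted p = 0.0367), and it was 2.93 in males and 0.59 in females (interaction -2.34 ± 1.03, unadjusted p = 0.0378, adjusted p = 0.377). The Il6 call ended with quantile normalization (adjusted p = 0.054), with the authors' values, without sex in the model, in the 8-array fit and when any of 5 arrays was left out, namely Yanglingquan replicates 1 and 2 and sham replicates 1, 2 and 3 (differences of 1.34 to 1.76, adjusted p = 0.063 to 0.15).

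The promoters of these genes are shown because Cxcl1 and Il6 are textbook targets of NF-kB, the transcription factor that couples cytokine receptors to inflammatory genes. The sequences are the 250 bases before the RefSeq start in the GRCr8 build, read 5′ to 3′ on the strand of the gene, for Cxcl1 chr14:17479322-17479571 (minus strand) and for Il6 chr4:5894576-5894825 (minus strand). Capitals mark matches to an NF-kB motif, GGGA and TTCC with 2 free bases between them, and to the cyclic AMP response element, TGACGTCA, each searched on both strands.
Cxcl1: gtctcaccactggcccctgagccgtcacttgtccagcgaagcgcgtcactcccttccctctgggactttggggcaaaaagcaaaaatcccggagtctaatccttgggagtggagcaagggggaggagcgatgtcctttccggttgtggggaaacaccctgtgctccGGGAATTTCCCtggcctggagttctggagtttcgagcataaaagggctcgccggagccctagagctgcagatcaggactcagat
Il6: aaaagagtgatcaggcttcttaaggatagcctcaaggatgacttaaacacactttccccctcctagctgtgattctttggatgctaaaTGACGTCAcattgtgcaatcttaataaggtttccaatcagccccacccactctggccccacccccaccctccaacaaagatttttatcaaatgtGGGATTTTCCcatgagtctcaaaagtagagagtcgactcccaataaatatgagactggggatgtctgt
The capitals in Cxcl1 are 2 overlapping NF-kB matches on opposite strands, whose first bases lie 84 and 83 bases before the start. In Il6 the NF-kB match begins 68 bases and the cyclic AMP element 162 bases before the start. An NF-kB match occurred in 293 of the 27457 promoters of this length in the table (1.07%) and in 132 of the 10547 that belong to tested genes (1.25%). It occurred in 7 of 201 promoters of the injury genes still higher in Yanglingquan (3.48%) and in 0 of 152 promoters of the injury genes that were back toward sham. Cxcl1 and Il6, known targets for which the motif was chosen, are 2 of the 7, and both sets were drawn from these data. The shares are therefore a description. The other members with a match were Efna4, Cfap77, Pglyrp1, Ces5a and Or2av9, with differences from sham between 0.69 and 2.05. The cyclic AMP element occurred in 7 of the 201 (3.48%), in 3 of the 152 (1.97%) and in 2.6% of tested genes, and the AP-1 motif TGANTCA in 5.47%, 5.26% and 5.13%. The E-box motif CACGTG, also searched, occurred in 4.48%, 9.21% and 7.58%, in the same order. A match in these letters is not evidence that the site was bound, and the counts of promoters with a match are small.

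Other cytokine genes did not pass the test. Of the 26 tested genes of inflammatory cytokines and chemokines, Il6 and Cxcl1 were the 2 called, both higher. That is 7.69% of the list, beside 13.0% of all genes called and 5.83% called higher. The list's median difference was 0.09 against -0.06 for all genes. Cxcl2, a close relative of Cxcl1, differed by 1.29 ± 0.52 (adjusted p = 0.105), Tnf, the gene of tumour necrosis factor, by 0.84 ± 0.35 (adjusted p = 0.116), Il1b, the gene of interleukin 1 beta, by 0.54 ± 0.35 (adjusted p = 0.326) and Ccl2, a monocyte chemoattractant gene, by 0.23 ± 0.44 (adjusted p = 0.767). Each had Yanglingquan arrays within the range of sham. Of 18 alternative settings, Tnf passed in 1 and Cxcl2, Il1b and Ccl2 in 0.

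Of 25 tested receptors and feedback genes of the cytokine pathway, 4 were called higher and 0 lower (16% beside 13.0% of all genes), with a median of 0.12. Nos2, the inducible nitric oxide synthase, stood at -1.37, -1.33, -1.62 and -1.79 in Yanglingquan, at -2.73, -3.17, -3.05 and -2.69 in sham, and at -2.14, -2.15, -2.26 and -1.79 in IRI. The groups Yanglingquan and sham did not overlap, and the difference was 1.38 ± 0.18 (adjusted p = 4.35e-05). Nos2 was also higher in Yanglingquan than in IRI, by 0.56 ± 0.18 (adjusted p = 0.046), a call that ended when any of 6 arrays was left out (adjusted p = 0.0538 to 0.107). Of 17 alternative settings, left-out arrays included, 11 ended this call. Il1r2, a decoy receptor that captures interleukin 1, stood at -2.09, -1.29, -2.75 and -1.30 in Yanglingquan and at -2.66, -4.27, -4.80 and -4.16 in sham. Sham replicate 1 lay within the Yanglingquan range and the other sham arrays well below it, with a difference of 2.11 ± 0.43 (adjusted p = 0.00325). Nfkbia, the inhibitor that NF-kB induces to switch itself off, was higher by 0.60 ± 0.14 (adjusted p = 0.00984) with IRI minus sham at 0.39 ± 0.14 (adjusted p = 0.13), and its call ended with the authors' processed values and in the 8-array fit. Socs3, a brake on the interleukin 6 signal, did not pass (0.45 ± 0.16, adjusted p = 0.071), and it passed with quantile normalization and with median scaling (adjusted p = 0.046 with the former).

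Of 31 tested immediate early and early response genes, 6 were called higher and 0 lower (19.4% beside 13.0% of all genes). The median difference was 0.54, and it lay between 0.46 and 0.59 under the other scalings with 4 to 6 called. Myc, the growth-linked transcription factor, stood at 0.98, 1.45, 1.87 and 1.48 in Yanglingquan, at 0.32, -0.12, -0.26 and 0.31 in sham and at 1.25, 1.27, 1.18 and 1.42 in IRI. Every Yanglingquan array lay above every sham array and the values surrounded those of IRI, with a difference of 1.38 ± 0.24 from sham (adjusted p = 0.000725) and 0.16 from IRI (adjusted p = 0.71). Gadd45b, a stress and cytokine response gene, stood at 0.62, 1.71, 1.90 and 1.39 against 0.34, 0.04, -1.19 and 0.02 in sham, a difference of 1.60 ± 0.29 (adjusted p = 0.00108). Its groups did not overlap, and the call was lost in the 8-array fit. Ier3, an early gene that limits cell death, was higher by 0.74 ± 0.17 (adjusted p = 0.0064) where IRI minus sham was 0.34 (adjusted p = 0.29). Egr3, a zinc finger early gene, was higher by 0.93 ± 0.22 (adjusted p = 0.00871) at its chosen probe, and another of its probes gave -0.30. The Egr3 call ended with the median over probes and in the 8-array fit, and its call in IRI ended without sham replicate 1 or 3 (adjusted p = 0.0973 and 0.0998).

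The best known members of this family did not pass in the main fit. Of 18 alternative settings, Jun passed in 1, Nr4a1 and Atf3 in 2 each, and Fos and Egr1 in 0. Fos differed by 0.45 ± 0.39 (adjusted p = 0.481), Jun by 0.85 ± 0.33 (adjusted p = 0.0901), Egr1 by -0.18 ± 0.51 (adjusted p = 0.852) and Nr4a1, an orphan nuclear receptor gene, by 0.79 ± 0.29 (adjusted p = 0.071). Atf3, a stress factor gene, was 3.74, 4.95 and 4.31 on the 3 Yanglingquan arrays that measured it and 3.79, 2.26, 3.04 and 3.80 in sham, a difference of 1.09 ± 0.38 (adjusted p = 0.0667) with overlap. Fosl1, a partner of Jun that was among the larger increases in IRI at 2.21, stood at -4.86, -4.10, -5.59 and -5.86 in Yanglingquan against -5.25, -7.35, -7.02 and -5.85 in sham. These groups overlapped, and neither its difference from sham (1.26 ± 0.49, adjusted p = 0.0938) nor that from IRI (-0.95, adjusted p = 0.23) passed.

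**Figure D3:**
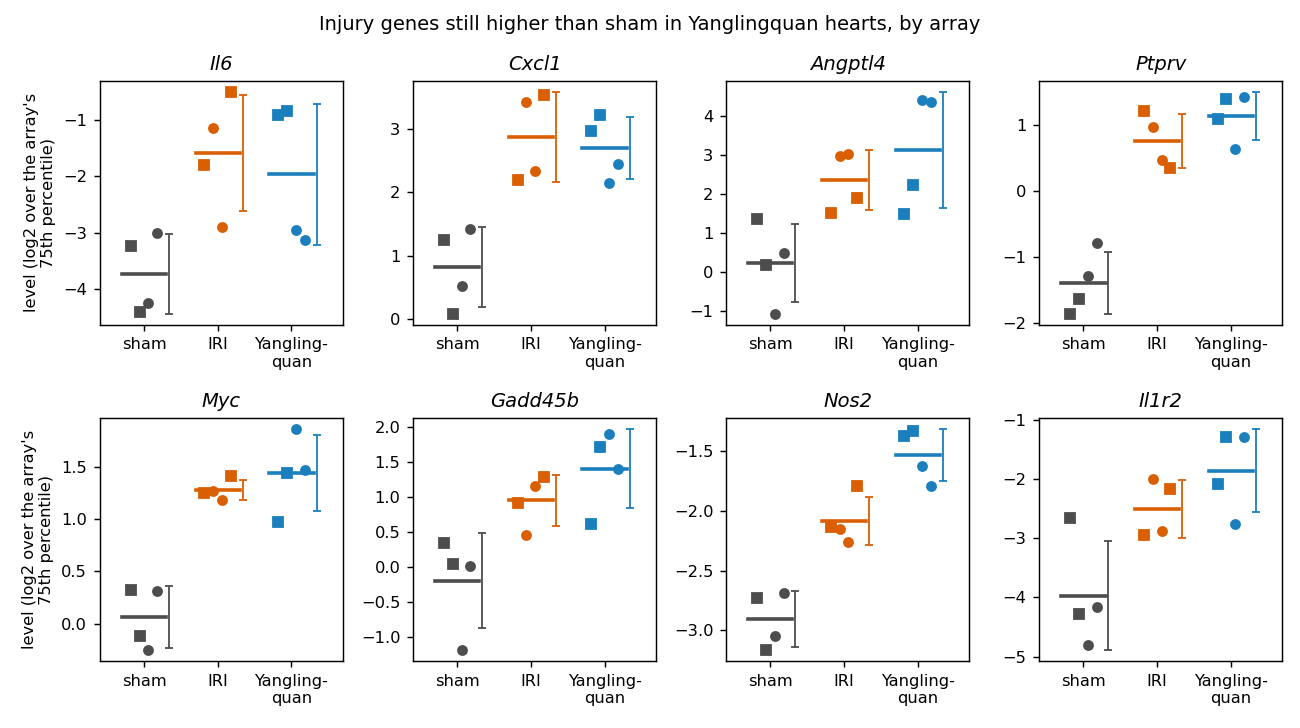
Levels of 8 injury genes on each sham, IRI and Yanglingquan array (vertical axes, log2 over the array's 75th percentile, with a scale of its own per gene), with squares for males, circles for females, a line at the mean and a bar of 1 SD. All Yanglingquan arrays lie above all sham arrays for Cxcl1, Angptl4, Ptprv, Myc, Gadd45b and Nos2, while for Il6 replicate 4 and for Il1r2 replicate 3 lie within the range of sham.

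Of 22 tested genes of the fuel switch under fatty acid sensing receptors, 3 were called higher and 0 lower. This share of 13.6% was close to the 13.0% of all genes, so it sets apart only the genes named here. The median of the list was 0.00057, with -0.07 under quantile normalization. Angptl4 and Ucp3 were injury genes and Pdk4 was not. Angptl4, a secreted inhibitor of lipoprotein lipase that fatty acid sensing receptors and hypoxia induce, stood at 1.50 and 2.25 in the Yanglingquan males and at 4.42 and 4.36 in the females, against 1.37 and 0.18 in sham males and -1.06 and 0.48 in sham females. All Yanglingquan values lay above all sham values, and the difference was 2.89 ± 0.58 (adjusted p = 0.00311, and 0.0586 in the 8-array fit). IRI minus sham was 2.11 (adjusted p = 0.036), a call that ended without sham replicate 2, 3 or 4 (1.56 to 2.18, adjusted p = 0.0579 to 0.16). In Yanglingquan the difference was 4.68 in females and 1.10 in males (interaction 3.58 ± 0.72, unadjusted p = 0.000158, adjusted p = 0.0904). Ucp3, a mitochondrial carrier that rises with fatty acid supply, stood at 0.04 and 0.26 in males and 2.28 and 2.06 in females, against 0.28, -0.91, -0.29 and -1.11 in sham. The males overlapped sham and the females did not, and the difference of 1.67 ± 0.49 (adjusted p = 0.0289) lost its call without any 1 of 5 arrays, Yanglingquan replicates 3 and 4 and sham replicates 2, 3 and 4 (1.33 to 1.65, adjusted p = 0.0664 to 0.0964), and in the 8-array fit. For Ucp3 IRI minus sham was 1.82 ± 0.49 (adjusted p = 0.0297), a call that ended without sham replicate 2, 3 or 4 (adjusted p = 0.0602 to 0.107). Pdk4, the kinase that shuts off glucose oxidation, was higher by 1.25 ± 0.40 (adjusted p = 0.0422) with IRI minus sham at 0.65 (adjusted p = 0.44), and it lost its call with quantile normalization (adjusted p = 0.0516), normexp, the authors' values, in the 8-array fit and without any of 6 arrays (0.87 to 1.39, adjusted p = 0.0506 to 0.151), all but Yanglingquan replicate 1 and sham replicate 1.

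Other genes kept a raised level in both comparisons with sham. Ptprv, a receptor tyrosine phosphatase induced by p53 in rodents, stood at 1.09, 1.40, 0.65 and 1.43 in Yanglingquan and at -1.86, -1.63, -1.28 and -0.79 in sham, with no overlap and a difference of 2.53 ± 0.37 (adjusted p = 0.000179). Stfa3l1, of the stefin family of protease inhibitors found in neutrophils, differed by 2.83 ± 0.56 (adjusted p = 0.00262) and was well above background on 2 of the 4 sham arrays. Cdkn1a, the cell cycle inhibitor p21, was higher by 0.61 ± 0.13 (adjusted p = 0.00559), with IRI minus sham at 0.60 and a second probe at 0.54, and was not called in the 8-array fit (adjusted p = 0.0517). Tnfrsf12a, a receptor of injured muscle and vessels, was higher by 0.73 ± 0.21 (adjusted p = 0.0282), a call that ended with normexp and without Yanglingquan replicate 2 or 3 or sham replicate 1 or 2 (0.65 to 0.69, adjusted p = 0.0684 to 0.0871), as its call in IRI did without sham replicate 1, 2 or 3 (adjusted p = 0.058 to 0.098). These last 2 belonged to the 18 genes of wall stress and the fetal programme, of which 5 were called higher and 0 lower (27.8% beside 13.0% of all genes), and 2 with quantile normalization. The natriuretic peptide genes Nppa and Nppb and the stretch gene Ankrd1 differed by 0.43 ± 0.63, 0.28 ± 0.24 and 0.26 ± 0.24 without passing (adjusted p = 0.459 to 0.693).

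Faint genes also appear among those retained and carry less weight. Fmo9 was well above background on 0 sham arrays and 1 Yanglingquan array, which gives at least a 1.62-fold difference (adjusted p = 0.00903, and 0.107 with normexp). Prl2a1 was below that mark on all arrays of both groups, so no fold is given, and its call ended with normexp. Doc2a, well above background on 1 array of each group, overlapped sham, and its difference of 1.87 ± 0.56 (adjusted p = 0.0333) lost its call under quantile normalization, normexp and the authors' values, in the 8-array fit and without any of 6 arrays, all but Yanglingquan replicate 1 and sham replicate 3 (1.53 to 1.83, adjusted p = 0.0746 to 0.102). Of 572 tested olfactory, vomeronasal and taste receptor genes, which have no known role in the working heart muscle and are faint here, 69 were called higher and 49 lower in Yanglingquan, beside 752 and 927 of 12894 over all genes. In IRI against sham 109 of these 572 receptor genes were called higher, beside 610 of 12894 over all genes. Of the 109, 38 were called higher in Yanglingquan, beside 248 of 610 over all genes.

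Sympathetic signalling genes were among the injury genes that stayed changed in both directions. Adrb1, the beta-1 adrenergic receptor through which noradrenaline drives heart rate and force, stood at -3.39, -3.65, -3.45 and -3.69 in Yanglingquan, at -2.95, -2.68, -2.91 and -2.93 in sham and at -3.70, -3.51, -3.48 and -3.33 in IRI. The Yanglingquan and sham arrays did not overlap, the difference was -0.68 ± 0.14 (adjusted p = 0.00325), and that from IRI was -0.04 (adjusted p = 0.89). Adra2b, an alpha-2 receptor gene, was higher by 0.71 ± 0.14 (adjusted p = 0.00255) where IRI minus sham was 0.83. Th, the rate-limiting enzyme of catecholamine synthesis, was higher by 1.09 ± 0.17 (adjusted p = 0.000264) and higher than in IRI by 0.61 (adjusted p = 0.02), with IRI minus sham at 0.47 (adjusted p = 0.11). Of the 30 tested genes of adrenergic and cholinergic signalling 5 were called higher and 2 lower (23.3% beside 13.0% of all genes), with a median of -0.0073.

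Of the 133 genes lower in IRI, 41 stayed called. Bid, a gene that links death receptors to mitochondrial cell death, stood at -2.86, -3.27, -3.02 and -3.21 in Yanglingquan, at -1.54, -1.80, -2.26 and -1.97 in sham and at -2.88, -3.62, -3.20 and -3.19 in IRI. The first group lay wholly below sham, with a difference of -1.20 ± 0.31 (adjusted p = 0.0144) that held under every alternative. Notch2, a receptor of the Notch pathway, was lower by -1.10 ± 0.30 (adjusted p = 0.0198) with 2 Yanglingquan arrays well above background, and its call ended with normexp and without Yanglingquan replicate 2 or sham replicate 2 (-1.04 and -1.03, adjusted p = 0.0563 and 0.0648). Bpifa2, a secretory protein gene, and Crygn, a lens crystallin gene, were at least 1.15-fold and 1.003-fold lower, being well above background on 0 Yanglingquan arrays. The Bpifa2 call ended with normexp, and that of Crygn with quantile normalization, normexp and the authors' values (adjusted p = 0.0607, 0.984 and 0.0638) and without sham replicate 2 (adjusted p = 0.0701). In IRI both calls ended without sham replicate 1 or 2 (adjusted p = 0.0509 to 0.0713). B9d2, a cilium gene, was also well above background on 0 Yanglingquan arrays and gave no fold, and its call ended with quantile normalization (adjusted p = 0.138), with normexp and without sham replicate 2 or Yanglingquan replicate 4. With normexp the difference of B9d2 in Yanglingquan was 0.03, and the IRI differences of B9d2, Bpifa2 and Crygn were 0.03, 0.07 and 0.06. Reg4 and Crisp1, genes of the gut and the reproductive tract, lost their calls without any of 6 arrays each (adjusted p = 0.0512 to 0.143 and 0.0561 to 0.153) and with quantile normalization, normexp, the authors' values and the replicate block. The Reg4 call also ended without sex in the model and in the 8-array fit, and the IRI call of Crisp1 without sham replicate 1, 2 or 3.

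Injury genes that differed from IRI in the direction of sham without a call against sham numbered 228 of 743. With quantile normalization they numbered 178 of 813, with normexp 91 of 649, and 137 of 443 without sham replicate 3. The 228 genes were not called against sham, which does not show that they equalled sham. Among them was Foxj1, the master regulator of motile cilia, which stood at -3.03, -3.27, -2.90 and -3.15 in Yanglingquan, at -3.89, -3.69, -3.71 and -3.41 in sham and at -2.01, -2.10, -2.04 and -1.42 in IRI. Its Yanglingquan arrays lay between those of sham and IRI and overlapped neither. The difference from sham did not pass (0.59 ± 0.35, adjusted p = 0.274) and that from IRI did (-1.20, adjusted p = 0.029), until Yanglingquan replicate 1, 2 or 4 was left out (adjusted p = 0.055 to 0.0774). The difference from IRI kept its call in 11 of 17 alternative settings, and that from sham passed in 1 of 18. Tmem174, a kidney membrane protein gene, stood at -0.68, -0.68 and -0.63 on the 3 Yanglingquan arrays that measured it and at -0.07, -0.65, -0.88 and -1.22 in sham, a difference of 0.0023, and it differed from IRI by -1.97 (adjusted p = 0.029), a call that ended without Yanglingquan replicate 1, 2 or 4 (adjusted p = 0.0517 to 0.0728). Its call in IRI ended without sham replicate 2, 3 or 4. Of 17 alternative settings, 4 ended the Tmem174 call in IRI and 4 ended its call against IRI.

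Among the genes lower in IRI, Cntn4, a neuronal adhesion gene, stood at -4.51, -4.55, -3.41 and -4.28 in Yanglingquan, at -3.49, -3.26, -3.49 and -3.57 in sham and at -5.58, -5.74, -5.42 and -5.03 in IRI. It differed from IRI by 1.26 (adjusted p = 0.016) and from sham by -0.73 ± 0.33 (adjusted p = 0.144), and the first call ended without Yanglingquan replicate 3 (adjusted p = 0.0586). That call held in 14 of 16 alternative settings. Vangl2, of the planar cell polarity pathway, differed from IRI by 0.96 (adjusted p = 0.015) and from sham by -0.51 ± 0.25 (adjusted p = 0.181), with its Yanglingquan arrays at -4.61, -4.58, -4.72 and -4.38, all below the sham arrays at -3.80, -4.04, -4.29 and -4.10. Esr2, oestrogen receptor beta, differed from IRI by 1.27 (adjusted p = 0.016) and from sham by -0.88 ± 0.33 (adjusted p = 0.0855) at the chosen probe, and there its Yanglingquan arrays also lay below all sham arrays. The difference of Esr2 from sham passed in 1 of 17 alternative settings. Its other 2 probes showed no lowering of that size in IRI (0.19 and -0.05), and the difference from IRI was -0.15 when the probes were combined by their median. Pou4f2, a retinal transcription factor gene, was well above background on 3 Yanglingquan, 3 sham and 0 IRI arrays. Clic6, a chloride channel family gene with the largest decrease in IRI (-3.33), stood at -4.32, -4.48, -3.42 and -5.02 in Yanglingquan against -1.39, -1.58, -2.20 and -2.61 in sham. The groups did not overlap, but the difference of -2.37 ± 0.83 did not pass (adjusted p = 0.0656), though it passed in 2 of 17 alternative settings. The call in IRI ended without sham replicate 1 (-3.13, adjusted p = 0.0596).

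In the other direction from injury, 7 genes were higher in IRI and lower in Yanglingquan than in sham. They were C8b, Fam161a, Spry3, Rit2, Tescl and the odorant receptor genes Or10al5b and Or1e28, named here after their values were seen. Of these, Rit2, Tescl and Or10al5b were well above background on 0 Yanglingquan arrays. Of C8b, Fam161a and Spry3, which were measured on all arrays, the differences from sham were -0.45, -0.91 and -0.43 in Yanglingquan and 0.38, 0.89 and 0.43 in IRI, and the Yanglingquan calls of C8b, Rit2 and Or10al5b ended with quantile normalization (adjusted p = 0.0523, 0.229 and 0.598).

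The genes of largest increase over sham were not injury genes for the most part. Of the 36 genes called higher by more than 2 log2 units, 12 were called in IRI against sham, 27 differed from IRI and 1 differed from the mean of the other acupoint groups. Krt80, a keratin of epithelia, stood at 1.13, 1.68, 1.16 and 1.54 in Yanglingquan, at -6.34, -5.48, -6.10 and -6.31 in sham and at -4.95, -4.37, -4.58 and -5.38 in IRI. The difference from sham was 7.44 ± 0.26 (adjusted p = 8.59e-14), and IRI minus sham was called too at 1.24. The same gene averaged 1.52 in Jiaji, 1.62 in Neiguan and 0.95 in Quchi, and Yanglingquan minus their mean was 0.02 (adjusted p = 0.97). The same pattern held for Mcc, a colorectal tumour suppressor gene (5.91 ± 0.27 against sham, 0.12 against the other acupoints), Evc2, a cilium gene of Hedgehog signalling (5.59 ± 0.28 and 0.07), the defensin gene Defb43 (5.25 ± 0.23 and -0.35, with IRI minus sham called at 1.01) and Pinx1, a telomerase inhibitor gene (4.32 ± 0.22 and -0.24). Cyp4a2, a fatty acid omega-hydroxylase, was well above background on 0 sham arrays and all 4 Yanglingquan arrays, at least 11.8-fold higher (adjusted p = 5.99e-09), and differed by 0.16 from the other acupoints.

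These genes thus separate the arrays of the acupoint groups from those of sham and IRI, which is also the division by scan day. Cd80, Mrgprb13, Opalin, Dact2, Nkx2-3 and Hoxd12 completed the 12 of largest increase, with differences from sham between 3.22 and 4.05 and from the other acupoints between -0.31 and 0.11 except for Nkx2-3 at 0.21. Mrgprb13, Nkx2-3 and Hoxd12 were each well above background on 1 sham array. Whether acupuncture as such or the scan day goes with the step cannot be told apart, since no pretreated heart was scanned with the sham arrays. The plot of the 6 groups shows the step for 5 of these genes and the different pattern of 3 genes lowered in Yanglingquan.

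**Figure D4:**
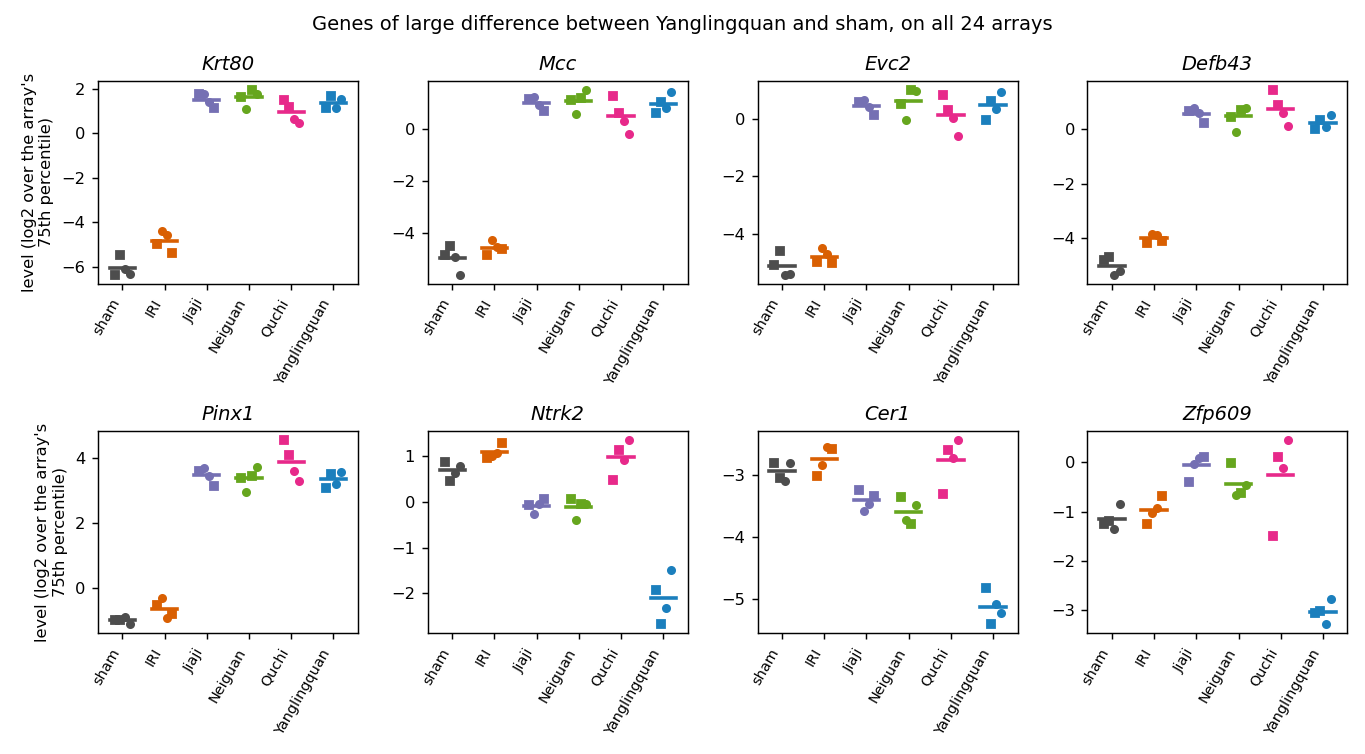
Levels of 8 genes on all 24 arrays by group (vertical axes, log2 over the array's 75th percentile, scaled per gene), with squares for males, circles for females and a line at the group mean. Krt80, Mcc, Evc2, Defb43 and Pinx1 are low in sham and IRI and high in all 4 acupoint groups, while Ntrk2, Cer1 and Zfp609 are lowest in the Yanglingquan group.

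The largest decreases had another pattern. Of the 15 genes called lower by more than 2 log2 units, 0 were injury genes, 13 differed from IRI and all 15 differed from the mean of the other acupoint groups, a comparison in which 3311 genes were called in total (25.7% of those tested, 978 higher and 2333 lower, or 1109 and 939 with quantile normalization). Ntrk2, the receptor of brain-derived neurotrophic factor, stood at -1.92, -2.67, -2.33 and -1.50 in Yanglingquan, at 0.89, 0.47, 0.64 and 0.78 in sham and at 0.97, 1.01, 1.07 and 1.28 in IRI. The Yanglingquan arrays lay far below all others, with a difference of -2.80 ± 0.20 from sham (adjusted p = 1.45e-08), -3.19 from IRI and -2.37 from the other acupoints, and it was called in every alternative. Jiaji and Neiguan averaged -0.08 and -0.11 and Quchi 0.98. Zfp609, a zinc finger gene, stood at -3.04, -3.01, -3.28 and -2.77 against -1.26, -1.18, -1.35 and -0.85 in sham (-1.87 ± 0.28, adjusted p = 0.000185), and a second probe of it gave -0.01. Abcg3l3, an ATP-binding transporter gene, was lower by -1.39 ± 0.21 (adjusted p = 0.000259), and by -2.30 against the other acupoints.

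Several of these decreases rest on single probes or faint signal. Cer1, an inhibitor of Nodal and BMP signals, was lower by -2.18 ± 0.17 (adjusted p = 4.05e-08), whereas another probe of it gave 0.28. Csnk1e, the clock kinase casein kinase 1 epsilon, was lower by -2.33 ± 0.26 (adjusted p = 1.13e-05) on the 3 Yanglingquan arrays that measured it, with other probes at -1.16 and 0.49. Catsperg, a sperm ion channel subunit gene, was lower by -2.11 ± 0.32 (adjusted p = 0.000438), also on 3 arrays, and another probe, well above background on 0 Yanglingquan arrays, gave -0.33. Chst5, Twist2, Cebpe, Trim17, Soat1, Mmp12, Ttc9b and Cd22 were well above background on 0 Yanglingquan arrays, and were at least 2.74, 2.56, 1.83, 1.78, 1.31, 1.3, 1.24 and 1.09-fold lower than sham (adjusted p = 2.43e-06 to 0.0143). With normexp, Chst5 kept its call and the other 7 lost it. Traip and Rnf182 were dim in the same way and gave no fold, both lost their calls with normexp, and the call of Traip ended without sham replicate 2 (adjusted p = 0.0701).

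Of 17 tested genes of neurotrophins and their receptors, 0 were called higher and 3 lower: Ntrk2, the neuregulin receptor Erbb4 (-1.42 ± 0.31, adjusted p = 0.00508) and the low affinity receptor Ngfr (-0.65 ± 0.17, adjusted p = 0.0172). The list's median was -0.04 against -0.06 for all genes, and 17.6% of it was called beside 13.0% of all genes. The Ngfr call also ended with quantile normalization, in the 8-array fit and without Yanglingquan or sham replicate 2. Quantile normalization and the authors' values each gave 3 higher and 2 lower, and the counts were 3 and 3 with median scaling, and with normexp, where Ngfr stood at 0.02 and Erbb4 was not called, 2 higher and 1 lower. Of 14 tested markers of neurons and Schwann cells, 1 was called higher and 3 lower (28.6%), including S100b (-1.15 ± 0.29, adjusted p = 0.0138, and 0.0718 with the authors' values), and with normexp 0 were called lower. Of 19 genes of adenosine and ATP signalling, 0 were higher and 4 lower, among them Adora1, the A1 adenosine receptor that slows the heart (-0.64 ± 0.15, adjusted p = 0.00771), and Entpd1, the enzyme that removes extracellular ATP (-0.72 ± 0.21, adjusted p = 0.027, lost with the authors' values, in the 8-array fit and without any of 5 arrays at adjusted p = 0.0594 to 0.117). The 4 made up 21.1% of the 19, beside 13.0% of all genes, and with normexp 0 of the 19 were called. The genes named here were not called in IRI against sham.

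Genes of heart muscle and mitochondria were higher in Yanglingquan under some scalings only. Of 42 tested genes of the respiratory chain and ATP synthase 16 were called higher and 0 lower (median 0.32), of 16 sarcomere genes 8 higher and 1 lower (median 0.46), of 32 genes of fatty acid uptake and oxidation 7 higher and 0 lower (median 0.41), of 33 ribosomal protein genes 9 higher and 0 lower (median 0.30), and of 15 cardiomyocyte markers 10 higher and 0 lower (median 0.45). In bulk tissue a difference in the number of such cells and in RNA per cell cannot be told apart. The shares called were 38.1%, 56.2%, 21.9%, 27.3% and 66.7%, in that order, beside 13.0% of all genes. With quantile normalization the same lists gave 0 higher and 3 lower (-0.06), 0 and 2 (0.01), 2 and 2 (0.17), 0 and 1 (-0.08) and 0 and 0 (-0.0064). The authors' processed values gave 0 and 4, 0 and 2, 2 and 2, 0 and 1 and 0 and 0, median scaling gave 13, 8, 9, 4 and 8 higher and normexp 14, 9, 7, 6 and 10. The plot of the lists sets both scalings side by side.

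Single genes show the same dependence. Tnni3, cardiac troponin I, stood at 7.69, 7.91, 7.46 and 7.59 in Yanglingquan and 7.31, 6.95, 7.08 and 6.93 in sham, a difference of 0.59 ± 0.12 (adjusted p = 0.00283) that became -0.03 (adjusted p = 0.80) with quantile normalization. Myh7, the slow myosin heavy chain that rises in the stressed rodent heart, differed by 0.71 ± 0.14 (adjusted p = 0.00258) and by 0.16 (adjusted p = 0.42) with quantile normalization. Prdx6 and Mlycd, an antioxidant enzyme and the malonyl-CoA decarboxylase that favours fatty acid entry into mitochondria, stayed called with quantile normalization (0.43 ± 0.11 and 0.35 with quantile normalization for the first, 0.81 ± 0.15 and 0.56 for the second, which 3 Yanglingquan arrays measured), while the Prdx6 call ended in the 8-array fit (adjusted p = 0.0531). IRI minus sham was -0.09, 0.04, 0.03 and 0.30 for these 4 genes, none of them called.

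**Figure D5:**
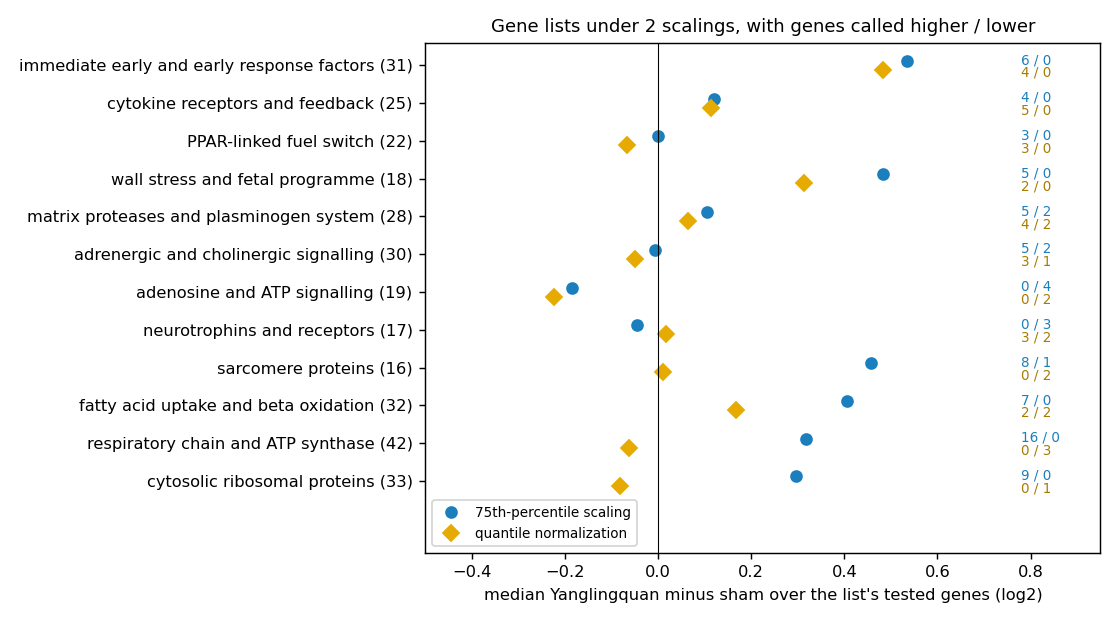
Median difference between Yanglingquan and sham in log2 units (horizontal axis) over the tested genes of 12 lists (number in brackets), under scaling to the 75th percentile (circles) and quantile normalization (diamonds); the figures at the right count genes called higher / lower under each. Early response genes called higher number 6 and 4, cytokine feedback genes 4 and 5 and fuel switch genes 3 and 3, not all of them the same genes.

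The difference from sham also varied with how bright a gene was. Among the 3224 genes with the faintest mean signal the median difference was -0.30, with 112 called higher and 503 lower, and among the 3224 brightest it was 0.08, with 280 higher and 62 lower. With quantile normalization these medians were -0.10 and -0.05. In IRI against sham, scanned on the same day, the medians of these sets were 0.09 and -0.04. The lower share of probes above background in Yanglingquan lies beside this pattern, and its part in the calls was not tested.

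Markers of neutrophils were called in both directions. Of 12 tested neutrophil markers 2 were called higher and 1 lower (25% beside 13.0% of all genes), with a median of 0.56. S100a9, a subunit of calprotectin, stood at 1.13, 1.53, -0.39 and 2.08 in Yanglingquan and at 0.77, -1.65, -1.43 and -0.79 in sham; the difference was 1.87 ± 0.52 (adjusted p = 0.0242), with overlap, and its call ended without Yanglingquan replicate 2 or 4 or sham replicate 2 or 3 (1.51 to 1.71, adjusted p = 0.0681 to 0.0997) and in the 8-array fit. Its partner S100a8 differed by 1.42 ± 0.57 (adjusted p = 0.105) and passed in 1 of 18 alternative settings. Csf3r, the receptor of the neutrophil growth factor, was higher by 1.10 ± 0.19 (adjusted p = 0.000616) without overlap, and Ngp, a neutrophil granule gene well above background on 0 Yanglingquan arrays, was at least 1.05-fold lower (adjusted p = 0.00447), a call that ended with normexp. The summed linear level of the 12 markers was 1.24 to 4.93 on the sham arrays and 2.26 to 7.93 on the Yanglingquan arrays, relative to each array's 75th percentile. These ranges overlapped, and 1 of the markers was below background on all Yanglingquan arrays.

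Of 15 monocyte and macrophage markers 1 was called higher and 2 lower (20% beside 13.0% of all genes), with Spi1, the myeloid master factor, higher by 1.03 ± 0.21 (adjusted p = 0.00275), and Msr1 and Mrc1, scavenger and mannose receptors of resident macrophages, lower by -1.54 ± 0.38 and -0.90 ± 0.28 (adjusted p = 0.0112 and 0.0419). The Msr1 call ended with normexp, and the Mrc1 call with normexp, quantile normalization, in the 8-array fit and without any of 5 arrays (adjusted p = 0.0549 to 0.182). Of 10 endothelial and 14 lymphocyte markers 0 were called (medians 0.07 and -0.54), of 11 fibroblast markers 1 was called lower, and of 12 smooth muscle markers 1 was called higher. Lists of leukocyte adhesion (14 tested), interferon response (28), complement and coagulation (24) and opioid genes (10) had 0 called in either direction. Of 28 matrix protease genes 5 were higher and 2 lower (25%), among them Adamts1, a protease that early signals induce, higher by 1.10 ± 0.18 (adjusted p = 0.00061) with IRI minus sham at 0.56 (adjusted p = 0.082), and Plg, plasminogen, higher by 0.83 ± 0.14 (adjusted p = 0.00082) with IRI minus sham at 0.52 (adjusted p = 0.036).

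The other lists are read beside the 13.0% of all genes called. Of 31 cell cycle genes 0 were higher and 2 lower, with a median of -0.59. Called higher and lower were 2 and 2 of 35 genes of ion channels and calcium handling, 1 and 1 of 20 of NADPH oxidases and nitric oxide synthases, 1 and 0 of 28 of survival kinases, 0 and 1 of 24 of extracellular matrix, 1 and 1 of 15 of angiotensin and kinins, and 3 and 2 of 30 angiogenic factors. For markers of mast cells (10 tested), erythrocytes and platelets (11), adipocytes (7) and liver (8) the counts were 0 and 2, 0 and 1, 0 and 1, and 1 and 0. Called higher and lower were 4 and 1 of 23 genes of endoplasmic reticulum stress, 4 and 2 of 31 of antioxidant defence, 6 and 2 of 31 of glycolysis and hypoxia, 2 and 0 of 28 chaperones, 3 and 0 of 28 of autophagy, and 2 and 3 of 33 of cell death. Among these lists, shares above that background were 25.8% for glycolysis and hypoxia, 21.7% for endoplasmic reticulum stress, 19.4% for antioxidant defence, 20% for mast cells, 16.7% for angiogenic factors, 15.2% for cell death, 14.3% for adipocytes and 13.3% for angiotensin and kinins. With quantile normalization the last 6 counts given were 1 and 0, 1 and 2, 0 and 2, 0 and 0, 0 and 0, and 1 and 3. Hk2, a hexokinase, stood at -0.98 and -1.34 in Yanglingquan males and -2.53 and -2.43 in females, against -0.70, -0.66, -0.87 and -0.85 in sham, with no overlap and a difference of -1.05 ± 0.27 (adjusted p = 0.015) that lost its call without Yanglingquan replicate 4 (-0.90, adjusted p = 0.0574). Sln, sarcolipin, an inhibitor of the calcium pump that marks atrial muscle, was lower by -1.05 ± 0.21 (adjusted p = 0.00326), and the list of 9 atrial markers had 0 higher and 2 lower (22.2%). Of 17 clock genes 1 was higher and 2 lower (17.6%). Per3 was higher by 0.92 ± 0.15 (adjusted p = 0.000524) at 1 probe, with 2 other probes at 0.12 and 0.05.

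Males and females were compared in a fit of the 12 group-by-sex means, each Yanglingquan and sham mean resting on 2 arrays. The difference from sham itself differed between the sexes for 8 of 12894 genes, and 1559 genes (12.1%) had an unadjusted p under 0.05. The 8 included Ckb, the brain type creatine kinase, which differed by -1.44 in females and 0.26 in males, and Pnpla7, a lysophospholipase gene, at 1.48 and -0.04 (adjusted p = 0.0293 and 0.0487). The count was 0 to 87 when 1 array was left out, the highest without sham replicate 1.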

How the data were processed

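One-colour Agilent rat arrays (Cy3) were read from 24 heart samples, 4 in each of 6 groups. Spot intensity was background-subtracted by the authors with Agilent Feature Extraction, version 11.0.1.1 per the file headers and 10.7.3.1 per the submitters' processing notes, and the deposited files also hold flags for outlier spots and for spots well above background. The authors' deposited log2 values, whose columns share 1 median, were used as an alternative. Probe annotation follows build rn4, per the file headers.

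From these, 1377 control spots per array and 8733 outlier spots over all arrays were left out, spots of a probe were averaged, and log2 intensity was set relative to the 75th percentile of each array. The normexp alternative started instead from the median signal and median background of each spot, with an offset of 50 added. Genes were named for 18005 of 30367 probes (59.3%). To pass the filter, a probe had to rise well above background on each of the 4 arrays in at least 1 group. Of several passing probes of a gene the one of highest mean signal was kept, and others are given where they disagree. Models had group and sex as terms over all 24 arrays (limma 3.58.1, R 4.3.3, Benjamini-Hochberg adjustment, threshold 0.05) and were tested on simulated data. There, 65 of 100 simulated 2-fold changes and 94 of 100 4-fold changes were called, and all 200 had the right sign. The comparison, the 44 gene lists (31 of pathways, 13 of cell types) and the rules were chosen with earlier results of these data known. Named genes were the 12 of largest change in each direction, called under 2 scalings without overlap; up to 8 per direction of retained and of returned injury genes; the leading called genes of lists; a panel of 41 genes (Hspa1a was not tested); and the leading genes against the other acupoints. Of the genes so chosen, 2 are not reported here. A fold written as "at least" sets the bright group against the lowest signal well above background. Promoters were read from RefSeq (GRCr8) and matched by symbol for 10547 of 12894 tested genes. Nothing in the labels ties a sample to 1 animal, so the p-values speak only for how far these samples scatter, which may be technical. For arrays, the number of samples limits the precision. Replicate numbers did not pair Yanglingquan with sham (correlations of deviations 0.04, -0.22, 0.33 and 0.02).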

Additional observations from a re-analysis of the deposited data

Results flagged for a closer look

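In 15 of 306 groups of 4 arrays, 1 array lay further from the other 3 than Dixon's critical value at 95% allows, and chance flags about 1 in 20 groups. In the Yanglingquan group these were Doc2a on replicate 1 (-7.73, the nearest other array at -6.06), Serpina3c on replicate 2 (-6.49), Csf3r on replicate 3 (-2.86) and, on replicate 4, Myh7 (7.57) and Slx9 (-0.036). In sham, replicate 2 stood apart for Cyp4a2 (-8.15), Nkx2-3 (-4.98), Cd22 (-4.73), Traip (-4.60), Adrb1 (-2.68), Mrc1 (-1.34) and Rnf182 (-5.28), each time at the high end, and replicate 1 for the muscle genes Atp2a2 (7.27), Pln (7.02) and Atp5f1a (6.87), also at the high end.

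The difference between Yanglingquan and sham itself differed between females and males for 8 genes, by limma's interaction term with Benjamini-Hochberg adjustment. Female minus male differences were 3.54 for Enam, an enamel matrix gene (1.13 in females and -2.40 in males), 2.68 for Ocm, the calcium binding protein oncomodulin (2.22 and -0.46), and 2.42 for Mfsd6l (0.03 and -2.39). They were 1.74 for Asb18 (1.56 and -0.18), 1.52 for Pnpla7 (1.48 and -0.04), 1.39 for Hsf4, a heat shock factor (0.77 and -0.63), 1.28 for Dhrs3, a retinal reductase (0.92 and -0.36), and -1.69 for Ckb (-1.44 and 0.26). Adjusted p lay between 0.0293 and 0.0487, with 2 arrays behind each mean.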

How the results depend on the processing

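Of 111 named genes called in Yanglingquan against sham, 70 kept their call with quantile normalization, 110 with median scaling, 76 with normexp, 70 with the authors' values, 77 in the fit of the 8 arrays and 83 without sham replicate 2. Calls in IRI against sham ended in 4 of 17 alternative settings for Il6, Angptl4, Ucp3 and Egr3. They ended in 5 of 17 for Tnfrsf12a and in 5 of 16 for Crisp1. Genes called numbered 963 with normexp (271 lower) and 786 with the 8 arrays (360 higher and 426 lower), and 506 were lower under the stricter filter. Leaving out 1 array gave 842 to 1594 called, 457 to 744 higher, 385 to 850 lower and 170 to 277 injury genes still called. Against IRI the count was 847 with quantile normalization, 649 with normexp, 858 with the authors' values and 914 under the stricter filter, or 1103 to 1589 without 1 array. Against the other acupoints it was 2048, 5285 with median scaling, 1641 and 1924, or 2452 to 3328. The sex interaction gave 2 genes with median scaling, 4 with the authors' values, 0 without a filter (limma, beside 8 called and 1559 genes at an unadjusted p under 0.05 with the filter), 1 with the 8 arrays and 0 to 87 without 1 array. For these changes the cause was not tested, except that the 8-array fit and left-out arrays rest on fewer samples.

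With quantile normalization and the authors' values, in that order, the difference from sham reversed for Atp5f1a (-0.032 and -0.032), Ckm (-0.0064 and -0.0049), Gapdh (-0.13 and -0.13), Ldhb (-0.072 and -0.071), Map1lc3a (-0.011 and -0.0098), Myh6 (-0.015 and -0.014), Rps15 (-0.084 and -0.083) and Tnni3 (-0.031 and -0.029), and Myh6 against IRI (-0.13 and -0.13). With normexp, IRI minus sham reversed for Acsm4 (0.0065), B9d2 (0.033), Bpifa2 (0.066), Crygn (0.060), Gpbar1 (0.042) and Otop2 (0.030), and Yanglingquan minus sham for B9d2 (0.034) and Ngfr (0.018). With the median over probes, Esr2 against IRI (-0.15), Grhpr against the other acupoints (-0.19) and Vegfa against sham (-0.044) reversed. The cause was not tested.

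With the replicate block 1630 genes were called and 293 injury genes remained called; the numbers do not pair samples. The fit of 8 arrays gives no injury genes. Scan as a random block was not run, since Yanglingquan and sham each lie in 1 scan day, and slide was not used here. Of the lower calls 234 rest on genes well above background on 0 Yanglingquan arrays, where only a bound was measured.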
